A study of Mus musculus with 16 samples.

Results

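The circadian clock genes Per1, Per2, Per3, Clock, Cry1, Cry2, Nr1d1, Nr1d2, Dbp and Tef were examined in the striatum of mutant (R6/1) mice and wild-type littermates. They were chosen by symbol and kept where at least 10 reads were counted in at least 4 of the 16 libraries, and all 10 passed, among 19363 tested genes of the 55450 in the deposited table. R6/1 mice (B6.Cg-Tg(HDexon1)61Gpb/J) carry exon 1 of the human huntingtin gene with an expanded CAG repeat on a C57BL/6J background and serve as a model of Huntington's disease. Striatal mRNA of 16 males aged 14 weeks was sequenced, 1 library per mouse, with 4 mice in each of the groups wt good, wt poor, R6/1 good and R6/1 poor. Good and poor refer to how each mouse fared in motor and body weight measures within its genotype. No mouse was treated, all were housed singly from before the behavioural tests, and the wild-type mice lacked the transgene.

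The clock is a transcriptional feedback loop that runs in nearly every cell. CLOCK or its relative NPAS2 pairs with BMAL1 (the product of Arntl), binds E-boxes and drives the Per and Cry genes, whose products then block that pair. The receptors encoded by Nr1d1 and Nr1d2 repress Arntl, and the PAR-bZIP factors DBP and TEF carry the rhythm to output genes through D-boxes. In the brain the suprachiasmatic nucleus sets the phase, and the striatum holds a clock of its own. Because several of these transcripts cycle over the day, the hour at which a striatum was taken bears on their levels. That hour is not given for single mice in the sources used here, so a change in level and a shift in phase cannot be told apart.

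Promoter sequences are printed for the members in which an exact clock motif was found, since the products of the loop act on these elements. Of the 10 members, 9 were matched in the RefSeq promoter table (GRCm38.p6), with 13 windows from 250 bases before to 50 after the start of transcription. Both strands were searched for the E-box CACGTG, the D-boxes TTATGTAA and TTACGTAA, the cAMP response element TGACGTCA and the RORE. The E-box stood in 4 of the 13 windows, in Per1, in Cry1 and in both windows of Tef, and in 7.15% of all 32851 windows of the table. Per3 carried the D-box TTATGTAA at 2 places, and 1.06% of all windows held either D-box. The cAMP response element stood in 1.79% and the RORE in 0.384% of all windows, and neither was found in a member's window. The 250 bases before the start are given for Per1 (chr11:69098699-69098948, plus strand), Cry1 (chr10:85185055-85185304, minus strand), Tef (chr15:81802423-81802672, plus strand) and Per3 (chr4:151044666-151044915, minus strand), in the direction of the gene, with E-boxes (Per1, Cry1, Tef) or D-boxes (Per3) in capitals.
Per1: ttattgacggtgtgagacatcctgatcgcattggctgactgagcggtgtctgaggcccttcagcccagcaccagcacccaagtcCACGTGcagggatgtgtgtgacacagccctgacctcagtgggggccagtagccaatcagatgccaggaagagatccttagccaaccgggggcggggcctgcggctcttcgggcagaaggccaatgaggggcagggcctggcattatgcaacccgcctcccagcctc
Cry1: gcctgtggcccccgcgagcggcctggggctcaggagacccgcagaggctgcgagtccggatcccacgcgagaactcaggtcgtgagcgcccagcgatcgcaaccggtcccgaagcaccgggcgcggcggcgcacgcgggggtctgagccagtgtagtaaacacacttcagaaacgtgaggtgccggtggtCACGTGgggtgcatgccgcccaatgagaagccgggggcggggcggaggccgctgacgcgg
Tef: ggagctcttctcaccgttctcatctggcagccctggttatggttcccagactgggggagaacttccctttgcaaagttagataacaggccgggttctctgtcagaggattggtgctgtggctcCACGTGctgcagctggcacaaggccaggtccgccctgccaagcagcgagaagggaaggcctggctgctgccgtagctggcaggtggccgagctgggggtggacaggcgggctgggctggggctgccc
Per3: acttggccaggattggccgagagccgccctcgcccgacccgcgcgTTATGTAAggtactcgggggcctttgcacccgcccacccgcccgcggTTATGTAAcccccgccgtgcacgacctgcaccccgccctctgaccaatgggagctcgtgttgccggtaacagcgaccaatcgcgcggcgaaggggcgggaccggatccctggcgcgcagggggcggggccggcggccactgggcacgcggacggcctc
Counted from the start of transcription, the E-box began at -166 in Per1, at -60 in Cry1 and at -127 in Tef, and the D-boxes of Per3 began at -205 and -158. These letters were not present in the windows of Clock, Cry2, Nr1d1, Nr1d2 or Dbp. The matches describe sequence, and no binding was measured.

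Total counts per library ran from 16155356 to 24897354. The column headers hold a number from 1 to 16, called the library number here, and do not say what it stands for. They mark no sets, and the division after 8 was made here. The totals of libraries 1 to 8 lay below those of libraries 9 to 16 without overlap. All 4 R6/1 good mice were in libraries 1 to 8, together with wt good 1, wt good 4, wt poor 1 and R6/1 poor 2, whereas the other 8 mice were in libraries 9 to 16. Values within each set are therefore given beside the pooled ones. The 10 markers of striatal medium spiny neurons, the main striatal cell type, were all detected and all fell in R6/1 mice, with a summed level of 5535 to 8707 CPM (counts scaled to a common library size) in wild-type mice and 1276 to 3262 CPM in R6/1 mice. Of 9 markers of the suprachiasmatic nucleus, 6 passed the count filter. The sum of all 9 was 4.80 to 18.4 CPM in wild-type and 4.25 to 22.6 CPM in R6/1 mice, highest in R6/1 poor 1. Avp, Nms, Six6 and Lhx1 were highest in that mouse too, at 0.641 to 2.82 CPM. Vip, Prok2, Rgs16, Nmu and Vipr2 were highest in other mice. In bulk tissue, fewer cells of a type and less RNA per cell cannot be told apart.

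Over all 8 R6/1 mice, 5 of the 10 clock genes fell against wild type, namely Per1, Per3, Nr1d1, Dbp and Tef, and Clock rose. Dbp and Tef were lower in each of the 8 R6/1 mice than in any of the 8 wild-type mice. In the comparison of 8 with 8 mice, the quasi-likelihood test of edgeR, adjusted after Benjamini and Hochberg, called 17% of all tested genes lower, 17.2% higher and 34.2% in either direction at an adjusted p under 0.05. Groups without overlap in the lower direction were found for 5.03% of all tested genes. The median log2 fold change of the 10 members was -0.22, beside 0.02 over all tested genes.

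**Figure D1:**
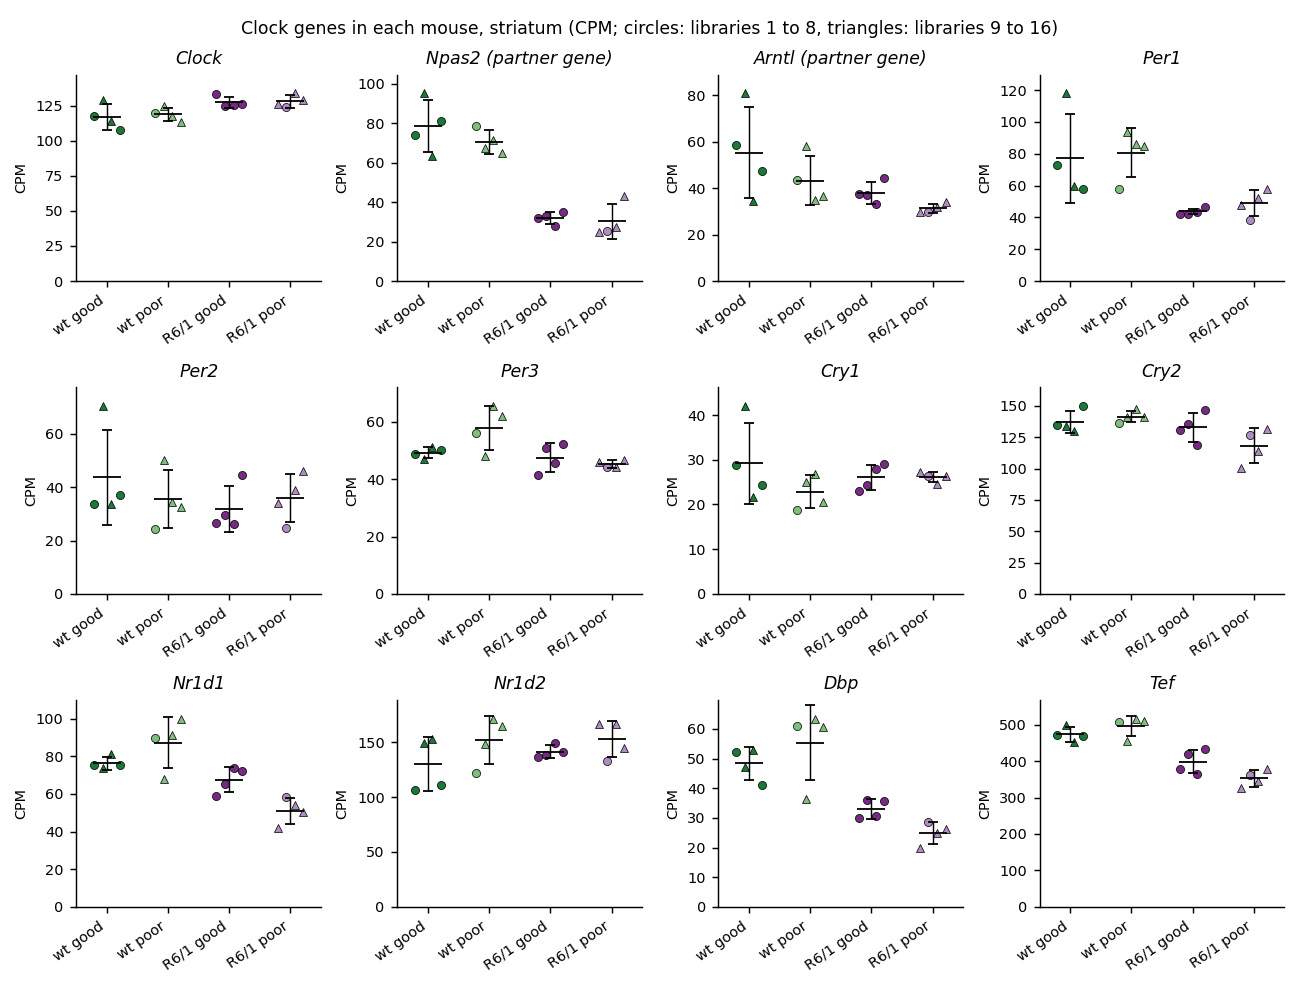
CPM of the 10 clock genes and of the partner genes Npas2 and Arntl in each mouse, by group, with the mean ± SD (n = 4) in black and the set of library numbers shown by the point's shape. The R6/1 points of Dbp, Tef and Npas2 lie below every wild-type point, whereas those of Per2, Cry1 and Nr1d2 lie among them.

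Dbp (chr7:45705088-45710203, GRCm38, plus strand) encodes a PAR-bZIP activator and is a direct output of the loop. Its level was 52.4, 47.1, 52.9 and 41.2 CPM in wt good mice and 60.9, 36.4, 63.4 and 60.6 CPM in wt poor mice. In R6/1 good mice it was 29.8, 36.0, 30.6 and 35.8 CPM, and in R6/1 poor mice 19.8, 28.7, 24.8 and 26.3 CPM. The highest R6/1 mouse lay just under wt poor 2, the lowest wild-type mouse, and the means were 29.0 ± 5.45 CPM (SD, n = 8) and 51.9 ± 9.77 CPM (SD, n = 8). The log2 fold change was -0.84 ± 0.13 (SE, adjusted p = 8.64e-05), a level of 0.558 times wild type. Exons of Dbp share 539 bases, 18.01% of its exon bases, with Sphk2 on the opposite strand, and the strand setting of the counting is not given in the sources used here. Sphk2 had a log2 fold change of 0.16 ± 0.07 (SE, adjusted p = 0.0902).

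Tef (chr15:81802421-81826863, plus strand) encodes a related PAR-bZIP factor and was the most abundant member. It measured 473, 501, 451 and 470 CPM in wt good mice and 506, 456, 516 and 509 CPM in wt poor mice. The R6/1 good mice had 379, 420, 364 and 432 CPM, and the R6/1 poor mice 326, 363, 345 and 379 CPM. All R6/1 values were below all wild-type values, and the log2 fold change of -0.37 ± 0.06 (SE, adjusted p = 7.74e-05) was smaller in size than that of Dbp. Hlf, which encodes the third PAR-bZIP factor, fell by 0.64 on the log2 scale (SE 0.08, adjusted p = 1.22e-05), and its groups did not overlap either.

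Per1 (chr11:69095217-69109960, plus strand) encodes a repressor of the loop whose transcription also responds to neuronal activity. Wt good mice had 72.7, 118, 59.97 and 57.8 CPM and wt poor mice 58.0, 94.0, 86.1 and 85.0 CPM, so that wt good 2 stood highest. R6/1 good mice had 42.4, 42.4, 43.6 and 46.4 CPM, whereas R6/1 poor mice had 47.5, 38.3, 52.4 and 58.1 CPM. Only R6/1 poor 4 reached the wild-type range. The log2 fold change was -0.77 ± 0.14 (SE, adjusted p = 0.00043). In a list of 12 activity-induced genes, 8 were lower in R6/1 mice and none higher, beside 17% and 17.2% of all tested genes. Their median log2 fold change was -1.02, beside 0.02 over all tested genes. The summed level of the list was 234 to 1276 CPM in wild-type mice (highest in wt good 2). It was 149 to 294 CPM in R6/1 mice, where R6/1 poor 4 was highest. The part of these levels in the Per1 difference was not tested.

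Per2 (chr1:91415982-91459324, minus strand), whose product acts beside that of Per1, was not shown to differ. It was measured at 33.8, 70.3, 33.6 and 37.2 CPM in wt good, 24.3, 50.2, 34.6 and 32.6 CPM in wt poor, 26.7, 29.6, 26.2 and 44.5 CPM in R6/1 good and 34.0, 24.7, 38.8 and 46.2 CPM in R6/1 poor mice. The groups overlapped throughout, and the log2 fold change of -0.22 had an interval of 2 SE on either side from -0.62 to 0.17 (adjusted p = 0.406). Per3 (chr4:151003652-151044665, minus strand) showed a small decrease. Wild-type mice ranged from 46.9 to 65.4 CPM and R6/1 mice from 41.6 to 52.1 CPM, with a log2 fold change of -0.21 ± 0.07 (SE, adjusted p = 0.0319). The Per3 call was lost in the analysis without wt poor 3, wt poor 4, R6/1 good 1, R6/1 poor 2 or R6/1 poor 3 (adjusted p from 0.0533 to 0.0641).

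Nr1d1 (chr11:98767932-98775333, minus strand) encodes REV-ERBα. Its values were 75.2, 73.5, 81.0 and 75.1 CPM in wt good mice and 89.5, 68.0, 91.5 and 99.8 CPM in wt poor mice. R6/1 good mice had 59.1, 65.0, 73.9 and 71.9 CPM and R6/1 poor mice 41.7, 58.2, 53.8 and 50.4 CPM. The poor mice lay below every wild-type mouse, as they did for 8.85% of all tested genes, whereas 2 of the good mice lay above wt poor 2, the lowest of them. Over all R6/1 mice the log2 fold change was -0.46 ± 0.11 (SE, adjusted p = 0.00262). Nr1d1 shares 263 exon bases with Thra on the opposite strand, 8.55% of its own, and Thra had a log2 fold change of 0.02 ± 0.07 (SE, adjusted p = 0.885).

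Nr1d2 (chr14:18204054-18239127, minus strand), the gene of REV-ERBβ, did not pass the test over all libraries. It ranged from 107 to 171 CPM in wild-type and from 133 to 167 CPM in R6/1 mice, with a log2 fold change of 0.06 ± 0.09 (SE, adjusted p = 0.641). The wild-type values split by library number, with 107, 111 and 122 CPM in libraries 1 to 8 and 148 to 171 CPM in libraries 9 to 16. Within libraries 1 to 8 the log2 fold change of 5 R6/1 against 3 wild-type mice was 0.29 ± 0.06 (SE, adjusted p = 0.0087), within libraries 9 to 16 that of 3 against 5 was 0.02 ± 0.08 (SE, adjusted p = 0.898), and with the set of library numbers as a covariate it was 0.16 ± 0.06 (SE, adjusted p = 0.0397).

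Clock (chr5:76209868-76304792, minus strand), an activator of the loop, rose by a small amount. It measured 117, 129, 114 and 107 CPM in wt good, 120, 125, 117 and 113 CPM in wt poor, 133, 125, 126 and 126 CPM in R6/1 good and 126, 124, 134 and 129 CPM in R6/1 poor mice. The log2 fold change was 0.12 ± 0.04 (SE, adjusted p = 0.0345), the ranges overlapped, and the call was lost without any one of 8 mice (wt good 1, wt good 3, wt good 4, wt poor 1, wt poor 3, wt poor 4, R6/1 good 1 or R6/1 poor 3, adjusted p from 0.059 to 0.0893).

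The cryptochromes, which repress the loop with the PER proteins, did not pass the test in this comparison. Cry1 (chr10:85131700-85185064, minus strand) ranged from 18.9 to 42.0 CPM in wild-type and from 23.0 to 29.0 CPM in R6/1 mice, with a log2 fold change of 0.00 ± 0.13 (SE, adjusted p = 0.987). Its coefficient of variation was 27.8% over the wild-type and 7.62% over the R6/1 mice. The wild-type value rests largely on wt good 2, which had 42.0 CPM, beside 18.9 to 28.9 CPM in the other wild-type mice. A difference in spread between the genotypes was not tested. Cry2 (chr2:92403646-92434043, minus strand) ranged from 130 to 150 CPM in wild-type and from 101 to 147 CPM in R6/1 mice, with a log2 fold change of -0.15 ± 0.06 (SE, adjusted p = 0.0747).

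The R6/1 good mice had lower Per1, Dbp and Tef than the 8 wild-type mice, and the R6/1 poor mice had lower Per1, Cry2, Nr1d1, Dbp and Tef. No member rose in either comparison. Over all tested genes, 24.6% were called for R6/1 good mice (12.4% lower, 12.1% higher) and 28.5% for R6/1 poor mice (14.9% lower, 13.5% higher). Both comparisons use the same 8 wild-type mice, so their values are given side by side. Dbp had a log2 fold change of -0.65 ± 0.14 (SE, adjusted p = 0.00383) in R6/1 good and of -1.06 ± 0.15 (SE, adjusted p = 0.000217) in R6/1 poor mice. The values of Tef were -0.28 ± 0.06 (SE, adjusted p = 0.00424) and -0.46 ± 0.06 (SE, adjusted p = 0.000108), and those of Per1 were -0.85 ± 0.18 (SE, adjusted p = 0.00472) and -0.69 ± 0.19 (SE, adjusted p = 0.0187). Nr1d1 missed the threshold in R6/1 good mice with -0.28 ± 0.10 (SE, adjusted p = 0.0517) and fell in R6/1 poor mice, where it had -0.68 ± 0.11 (SE, adjusted p = 0.000444). With DESeq2 Nr1d1 passed in the good mice as well (-0.29, adjusted p = 0.0285), and with wt good mice alone as controls Tef did not pass there (-0.25, adjusted p = 0.0568 by edgeR). Cry2 had -0.07 ± 0.06 (SE, adjusted p = 0.461) and -0.24 ± 0.07 (SE, adjusted p = 0.0213). Per3 had -0.17 ± 0.10 (SE, adjusted p = 0.209) and -0.24 ± 0.09 (SE, adjusted p = 0.055), and Per2, Cry1, Nr1d2 and Clock passed in neither. The Per1 call in R6/1 poor mice was lost without R6/1 poor 1 (adjusted p = 0.056) or R6/1 poor 2 (adjusted p = 0.0608), and that of Cry2 without R6/1 poor 1 (adjusted p = 0.0943) or R6/1 poor 3 (adjusted p = 0.0758).

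Libraries 1 to 8 hold, beside R6/1 poor 2, 4 R6/1 good and 3 wild-type mice, and between these groups Dbp (-0.65, adjusted p = 0.0115), Tef (-0.29, adjusted p = 0.0274) and Per1 (-0.54, adjusted p = 0.00435) were lower by edgeR, and Nr1d2 was higher. Libraries 9 to 16 hold 3 R6/1 poor and 5 wild-type mice, and there Dbp (-1.14, adjusted p = 0.00422), Tef (-0.48, adjusted p = 0.00421), Nr1d1 (-0.77, adjusted p = 0.00566) and Per1 (-0.75, adjusted p = 0.025) were lower, and Cry2 had -0.27 (adjusted p = 0.0634). The decrease in Dbp, Tef and Per1 was thus present in both sets of libraries. For R6/1 mice of both performances, Per3 (adjusted p = 0.225 and 0.149) and Clock (adjusted p = 0.122 and 0.267) passed in neither set.

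**Figure D2:**
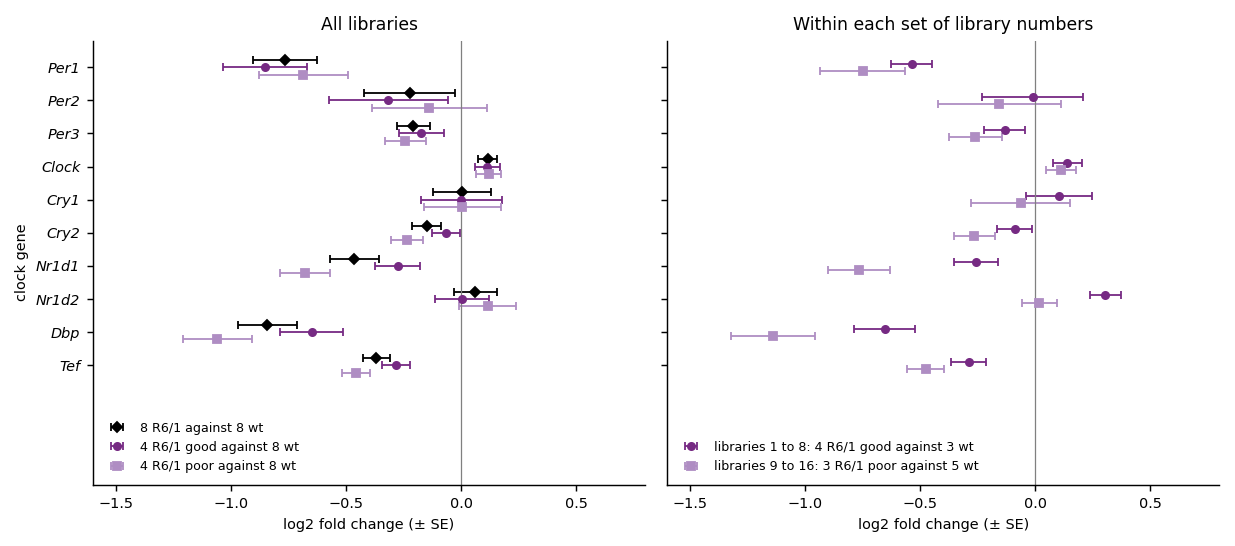
Log2 fold change ± SE of each clock gene against wild type, over all libraries (left) and within each set of library numbers (right), with the groups given in the legend. Dbp, Tef and Per1 lie left of 0 in every comparison, and Nr1d2 lies right of 0 in libraries 1 to 8 and near 0 in libraries 9 to 16.

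When the poor R6/1 mice were compared with the good ones, no member passed the test, and 0% of all tested genes did. By edgeR 3000 genes had an unadjusted p under 0.05, and DESeq2 called 227 genes higher and 129 lower (1.84%), with no member among them. Dbp and Nr1d1 did not overlap between the groups, and 4% of all tested genes were lower in all 4 poor than in all 4 good mice. The edgeR count of 0 rested on single libraries, with 49 genes higher and 12 lower without R6/1 poor 2, and 90 higher and 9 lower without R6/1 poor 4, again with no member among them. Dbp was 19.8 to 28.7 CPM in poor and 29.8 to 36.0 CPM in good mice, with a log2 fold change of -0.39 ± 0.11 (SE, edgeR adjusted p = 0.249, DESeq2 adjusted p = 0.0671). Nr1d1 was 41.7 to 58.2 CPM in poor and 59.1 to 73.9 CPM in good mice, with -0.39 ± 0.11 (SE, edgeR adjusted p = 0.248, DESeq2 adjusted p = 0.0507). The highest poor mouse for both genes was R6/1 poor 2, the only poor mouse in libraries 1 to 8. Within libraries 1 to 8 this mouse alone stands for the poor group against the 4 good mice, and its log2 difference was -0.19 for Dbp and -0.20 for Nr1d1. The group and the set of library numbers therefore cannot be told apart here. Markers of the lateral septum and of the hypothalamus were high in 2 of the poor mice. The summed level of 7 lateral septal markers was 228 CPM in R6/1 poor 1 and 184 CPM in R6/1 poor 3, beside 64.0 to 97.9 CPM in the other poor and 57.0 to 97.3 CPM in the good mice. For 11 hypothalamic markers, 8 of which passed the count filter, the sums were 48.6 and 34.0 CPM, beside 7.90 to 12.7 CPM and 7.30 to 11.4 CPM. For the 9 suprachiasmatic markers they were 22.6 and 15.4 CPM, beside 8.79 to 13.6 CPM and 4.25 to 10.6 CPM. The sum of 9 cortical neuron markers varied within every group. It was 838 CPM in R6/1 poor 4, the highest of all mice, and 93.6 to 229 CPM in the other poor mice. R6/1 good 1 had 538 CPM, beside 58.6 to 250 CPM in the other good mice, and wild-type mice had 49.7 to 764 CPM. R6/1 poor 1 had the lowest Dbp, Nr1d1, Cry2, Tef and Npas2 of all mice, and R6/1 poor 3 the next lowest Dbp, Cry2 and Tef. The log2 fold change between the groups without R6/1 poor 1 was -0.30 for Dbp and -0.31 for Nr1d1. Without R6/1 poor 3 it was -0.39 and -0.42. These mice were left out singly and not together, and the Cry2 call in poor mice against wild type was lost without either. Against wild type, Dbp in poor mice had -0.97 without R6/1 poor 1 and -1.06 without R6/1 poor 3. The part of these markers in the clock gene values was not tested. All 16 glucocorticoid-responsive genes of a list had a positive edgeR log2 fold change in poor against good mice. Their median was 0.53, beside -0.00079 over all tested genes, and none passed the edgeR threshold. The paper, with DESeq2, names Cdkn1a and Ddit4 from this list among genes more significantly lowered in R6/1 good mice. The summed level was 655, 731 and 807 CPM in R6/1 poor 1, 3 and 4, all in libraries 9 to 16. In R6/1 poor 2 it was 398 CPM, the lowest of all mice, and in the good mice 445 to 513 CPM. The part of these genes in the clock gene values was not tested.

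Between wt poor and wt good mice no member and 0% of all genes passed the test, with 472 genes at an unadjusted p under 0.05 by edgeR and 0 calls by DESeq2. The interaction of genotype and performance was likewise past the threshold for no member and for 0% of genes, with 1118 genes at an unadjusted p under 0.05 and 1 call by DESeq2. The smallest p of a member in that test was that of Nr1d1, with an interaction of -0.60 ± 0.16 on the log2 scale (SE, unadjusted p = 0.0016, adjusted p = 0.826). The difference between the 2 R6/1 groups in Nr1d1 and Dbp was therefore not shown to depend on genotype.

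Within each mouse, the level of a gene was also divided by that of its relative, since such a ratio does not depend on the library's scaling. This comparison was chosen after the values had been seen, so its p-values describe the ratios and add no independent support. Npas2 by itself did not overlap between the genotypes, so the p of its ratio to Clock is not a new test. The ratio of Npas2 to Clock, alternative partners of BMAL1, was 0.244 ± 0.0472 (SD, n = 8) in R6/1 and 0.633 ± 0.0804 (SD, n = 8) in wild-type mice, with no overlap (exact 2-sided permutation test, p = 0.000155, the smallest the design allows, adjusted over 5 ratios 0.000777). The ratio of Nr1d1 to Nr1d2 was 0.408 ± 0.0915 and 0.591 ± 0.103 (SD, n = 8 each, exact permutation test, adjusted p = 0.00214), and it was lower within libraries 1 to 8 (0.469 against 0.703) and within libraries 9 to 16 (0.307 against 0.524) too. The ratio of Per1 to Per2 was 1.41 ± 0.200 and 2.07 ± 0.400 (SD, n = 8 each, exact permutation test, adjusted p = 0.00155), and within libraries 1 to 8 the adjusted p of the exact permutation test was 0.0893. Dbp to Tef was 0.0766 ± 0.00857 and 0.106 ± 0.0168 (SD, n = 8 each, exact permutation test, adjusted p = 0.00155). The ratio of Cry1 to Cry2, at 0.210 ± 0.0309 and 0.188 ± 0.0560, did not pass (SD, n = 8 each, exact permutation test, adjusted p = 0.211).

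**Figure D3:**
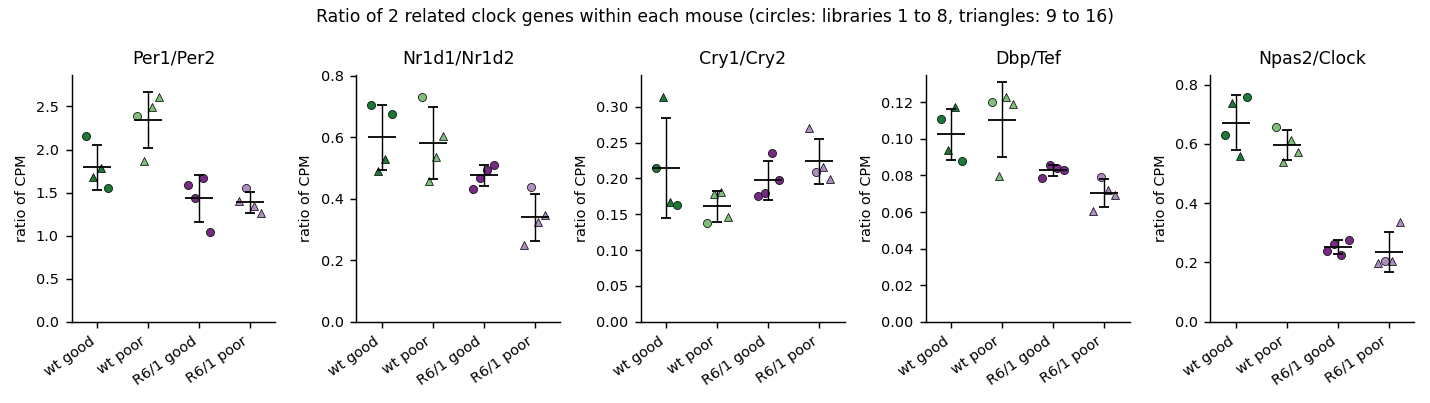
Ratio of the CPM of related clock genes in each mouse by group, with the mean ± SD (n = 4) in black and the set of library numbers shown by the point's shape. The Npas2 to Clock ratios of R6/1 mice lie at 0.199 to 0.337 and those of wild-type mice at 0.540 to 0.758, whereas the Cry1 to Cry2 ratios overlap.

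Per kilobase of exon, which allows genes to be compared, Tef was highest in wild-type mice at 61.7 ± 3.25 CPM per kb (SD, n = 8). Nr1d1 (26.6), Nr1d2 (26.1) and Cry2 (22.04 CPM per kb) followed with overlapping ranges, then Dbp (17.3) and Per1 (14.0 CPM per kb), which overlapped each other and, in their highest mice, Cry2 and Nr1d2. Per1 lay above Clock without overlap. Clock (8.59), Cry1 (7.79), Per2 (6.76) and Per3 (5.57 CPM per kb) were lowest, and of these neighbours none was separated from the next. In R6/1 mice Tef again came first at 47.8 ± 4.52 CPM per kb (SD, n = 8), and Nr1d2 (24.6 to 30.8 CPM per kb) was above Cry2 (15.9 to 23.2 CPM per kb) without overlap. Cry2 and Nr1d1 (13.6 to 24.0 CPM per kb) overlapped, and Dbp (6.61 to 12.03), Clock (9.01 to 9.74) and Per1 (6.80 to 10.3 CPM per kb) overlapped, as did Cry1 (6.90 to 8.69), Per2 (4.21 to 7.89) and Per3 (4.33 to 5.43 CPM per kb) with their neighbours.

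Of the 32 other clock pathway genes, all passed the count filter, and 12 fell and 6 rose in R6/1 mice, beside 17% and 17.2% of all tested genes. The median log2 fold change was 0.02, the same as over all genes to 2 decimals. In R6/1 good mice 9 fell and 4 rose, beside 12.4% and 12.1% of all tested genes. In R6/1 poor mice 11 fell and 4 rose, beside 14.9% and 13.5%. Npas2, which stands in for CLOCK in the forebrain, had 74.1, 95.3, 63.7 and 81.3 CPM in wt good and 78.5, 67.3, 71.8 and 65.0 CPM in wt poor mice. In R6/1 good mice it was 32.0, 32.8, 28.1 and 34.97 CPM and in R6/1 poor mice 25.0, 25.4, 27.4 and 43.4 CPM. No R6/1 mouse reached the wild-type range, and the log2 fold change of -1.26 ± 0.11 (SE, adjusted p = 2.92e-07) was larger in size than that of any member. Arntl had 58.5, 80.8, 34.5 and 47.4 CPM in wt good, 43.7, 58.2, 34.8 and 36.5 CPM in wt poor, 37.3, 36.9, 33.1 and 44.2 CPM in R6/1 good and 29.8, 29.6, 31.9 and 33.9 CPM in R6/1 poor mice. Its log2 fold change was -0.51 ± 0.16 (SE, adjusted p = 0.0205), with overlapping groups.

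Among the other pathway genes, the output gene Ppp1r3c, which encodes a glycogen-targeting phosphatase subunit, fell by 0.69 on the log2 scale (adjusted p = 2.93e-05). Usp2, a deubiquitinase gene and clock output, fell by 0.50 (adjusted p = 0.000288), and Ciart, encoding a repressor of the CLOCK and BMAL1 pair, fell by 0.43 (adjusted p = 0.0125). The nuclear receptor gene Rorb had a log2 fold change of -0.40 (adjusted p = 0.00169), the kinase gene Gsk3b of -0.31 (adjusted p = 7.53e-05) and Cipc, another repressor of CLOCK, of -0.24 (adjusted p = 0.000662). Csnk1d, encoding a casein kinase that phosphorylates PER proteins, rose by 0.20 (adjusted p = 0.000704), as did the chromatin gene Wdr5 by 0.20 (adjusted p = 0.0011).

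**Figure D4:**
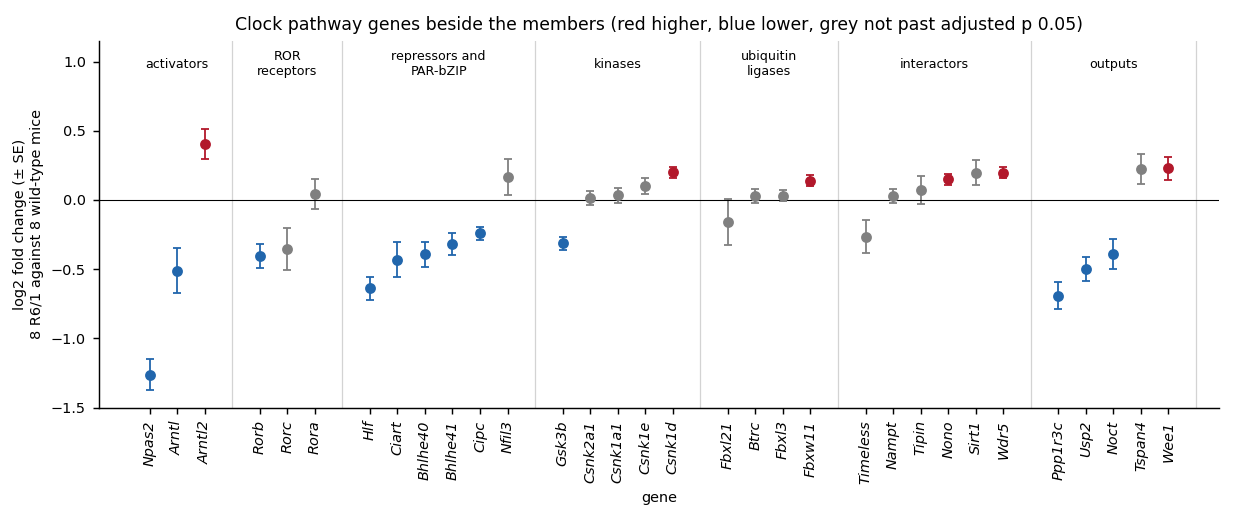
Log2 fold change ± SE of the 32 clock pathway genes in 8 R6/1 against 8 wild-type mice, grouped by role and coloured by whether edgeR's adjusted p was under 0.05. Npas2 lies lowest at -1.26, and of 6 genes for repressors and PAR-bZIP partners 5 lie below 0 and passed the test.

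The relation of Dbp to the other members and to Arntl and Npas2 was measured across mice within each genotype, as 22 relations on log2 CPM. In the 8 wild-type mice Dbp rose with Nr1d1 (Pearson r = 0.887, exact permutation p = 0.0036, adjusted 0.0261, Spearman rho = 0.905, p = 0.00456, adjusted 0.0589). Without the 2 mice farthest from the median of Dbp, r was 0.90. After the mean of each set of libraries was removed it was 0.891 (permutation over all 8 mice, adjusted p = 0.0461). That permutation did not keep to the sets, so after the removal it is not exact and its p can be too small. Dbp with Per3 had r = 0.777 and rho = 0.857 (exact permutation, adjusted p = 0.108 and 0.0589), and Dbp with Tef r = 0.695 and rho = 0.714 (exact permutation, adjusted p = 0.175 and 0.211). The relations with Per1 (r = -0.166), Per2 (r = -0.613), Cry2 (r = -0.124) and Arntl (r = -0.583) did not pass the adjustment.

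In the R6/1 mice Pearson's r of Dbp was 0.899 with Nr1d1, 0.917 with Tef and 0.879 with Cry2 (exact permutation, adjusted p = 0.0261 for each, n = 8), and Spearman's rho was 0.881, 0.857 and 0.762 (adjusted p = 0.0589, 0.0589 and 0.162). Without the 2 mice farthest from the median, r was 0.839, 0.835 and 0.72. Dbp had r = -0.738 with Nr1d2 and r = 0.746 with Arntl, which did not pass (exact permutation, adjusted p = 0.111 for each). Good and poor mice did not overlap in Dbp (29.8 CPM and above against 28.7 CPM and below), so that a relation over all 8 holds the difference between them, and a group of 4 is too small for a relation of its own. After the mean of each set of libraries was removed, r was 0.909 with Tef (permutation over all 8 mice, not exact here, adjusted p = 0.0461). With Cry2 (r = 0.84, adjusted p = 0.0583) and Nr1d1 (r = 0.695, adjusted p = 0.125) the same permutation test was not passed. The removal moved r with Per1 from -0.407 to 0.812 and with Per2 from -0.135 to 0.769, and neither passed. Over both genotypes 4 of the 22 relations passed by Pearson's r and 0 by Spearman's rho (smallest adjusted p = 0.0589).

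**Figure D5:**
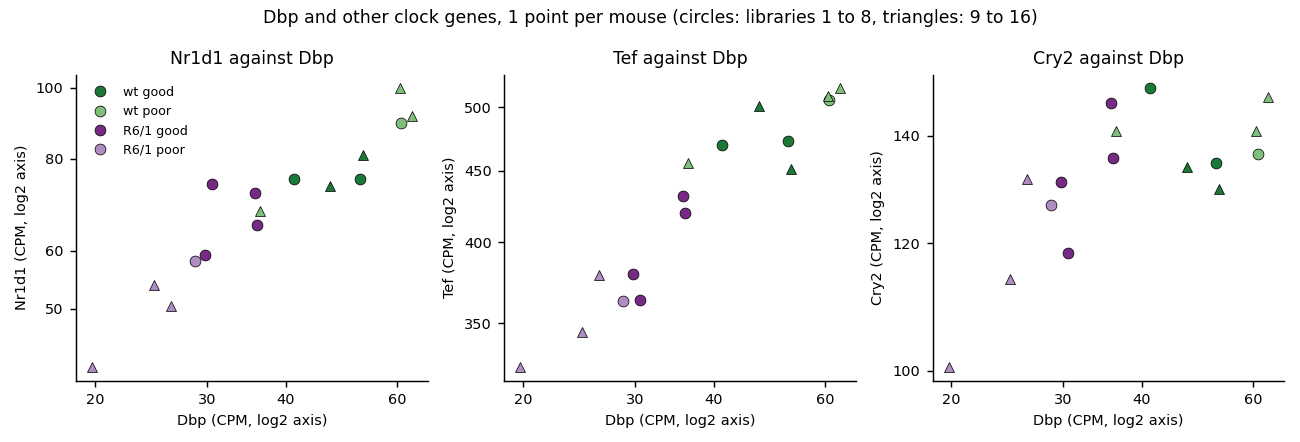
CPM of Nr1d1, Tef and Cry2 (vertical, log2 axes) against Dbp (horizontal, log2 axis), 1 point per mouse, coloured by group and shaped by set of library numbers. The 4 R6/1 poor mice have the lowest Dbp, 19.8 to 28.7 CPM, and the wild-type mice the highest, 36.4 to 63.4 CPM.

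As a description, the 14443 genes with a mean log2 CPM of at least 1 were ranked by the correlation of their deviations from the 4 group means with those of Dbp over the 16 libraries, which share depth and library set. Among the closest were Gm47798 (r = 0.881), Dcbld1, Helq and Srd5a3 (r = 0.869). Among the members Nr1d1 came closest at rank 20 (r = 0.809), Tef stood at rank 184 and Per3 at rank 235. The genes closest to Per1 were Adam10 (r = 0.935), Kdm7a, Nr4a1, Lrrc8c and Far1 (r = 0.926), with Per2 at rank 60 (r = 0.864) and Cry1 at rank 276 (r = 0.793). The correlation of Per1 with Dbp was -0.203.

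Markers of several other cell types moved with genotype too, beside 17% of all tested genes called lower and 17.2% higher. Astrocyte markers, 5 of 8 lower and 1 higher, summed to 5367 to 6356 CPM in wild-type and 3462 to 4153 CPM in R6/1 mice. All 6 microglial markers were lower, with sums of 512 to 653 CPM and 363 to 492 CPM, and 5 of 6 endothelial markers were lower, with sums of 335 to 395 CPM and 254 to 297 CPM. Of 6 oligodendrocyte markers 3 were lower, with sums of 9860 to 15011 CPM and 6987 to 10876 CPM. The part of these levels in the clock gene differences was not tested.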

How the data were processed

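Striatal mRNA of 16 male mice was sequenced as 75-base read pairs from TruSeq Stranded libraries, and the authors aligned the reads to the mouse genome (GRCm38) with TopHat 1.0.1 and deposited 1 table of raw counts per gene. How reads were counted, strand setting included, is not stated in those sources. Totals were 16155356 to 24897354 counts per library. The column headers of wt good 1 and wt good 2 begin with the same number and differ by a letter. They were counted as separate mice, as titled. The chi-square per gene between their counts was 19.0, beside 17.2 to 31.6 for the other pairs of wt good mice. A gene entered the tests if 4 or more libraries held 10 or more counts of it, and was tested with edgeR 4.0.16 (R 4.3.3, TMM factors, robust quasi-likelihood fits) at a Benjamini-Hochberg adjusted p under 0.05, and this script was tested on simulated data. The SE of a log2 fold change was its size over the square root of F. CPM used TMM library sizes. DESeq2 1.42.0, other filters and scalings, a replicate block, the library number, leaving out each mouse, and controls of the same performance were tried as alternatives. Gene positions were taken from GENCODE M21, which matched all 55450 genes. Ratios and relations were tested by exact permutation over mice. Where the means of the library sets were removed, the relations were still permuted over all mice of a genotype, which is not exact. All 10 members, Arntl, Npas2, Ciart, Thra and the 8 other pathway genes with the smallest p were named, as were the 5 genes most like Dbp and Per1, except 1 that is not reported here. The members and lists were chosen with earlier results of these data known. Clock hours are not given, so phase was not analysed here.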

Additional observations from a re-analysis of the deposited data

Results flagged for a closer look

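A sample was looked at again where its gap to the nearest of the 4 mice of its group took up most of the group's range (Dixon's test at 95%), over the 56 groups of the 10 members and of Arntl, Npas2, Ciart and Hlf. Chance marks about 1 in 20 groups, which is 2.8 here, and 5 were marked. Per2 was 70.3 CPM in wt good 2, where the other 3 wt good mice had 33.6 to 37.2 CPM. Dbp was 36.4 CPM in wt poor 2, below the 60.6 to 63.4 CPM of the other wt poor mice, and Tef was 456 CPM in the same mouse, below 506 to 516 CPM. Clock was 133 CPM in R6/1 good 1, above 125 to 126 CPM. Npas2 was 43.4 CPM in R6/1 poor 4, above 25.0 to 27.4 CPM. This mouse also had the highest sum of cortical neuron markers, 838 CPM, and their part in its Npas2 level was not tested. No interaction of genotype and performance passed the threshold for any member.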

How the results depend on the processing

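The calls of Dbp, Tef, Per1 and Nr1d1 over all R6/1 mice were kept by every alternative run. In R6/1 poor mice no member passed within libraries 1 to 8 (0 of 5, 1 mouse against 3, with the lone mouse assumed to vary like the wild-type mice). Leaving out each mouse gave 4 to 7 called members for all R6/1 mice, 3 to 4 for R6/1 good and 3 to 6 for R6/1 poor, the fewest without R6/1 poor 1, and 0 in the other comparisons. Removing the means of the library sets left 2 of the relations, by a permutation that is then not exact. The ratio of Per1 to Per2 had a log2 difference of -0.476 within libraries 1 to 8. Nr1d1 in R6/1 good mice passed with DESeq2 (-0.287), and Tef there missed it with wt good controls (-0.25).

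Replicate numbers did not pair the mice, with same-numbered correlations from -0.346 to 0.233. With the replicate block, 6, 4 and 5 members passed for all, good and poor R6/1 mice, and 46 genes rose and 50 fell between R6/1 poor and good mice, where the fit without it called 0 and one with no filter called 21 and 7.

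All changes of sign were in values that did not pass the test. For Cry1 in all R6/1 mice they were -0.000843 (DESeq2), -0.000986 (RLE factors), -0.00876 (filter of 50 counts) and -0.0642 (libraries 9 to 16), in R6/1 good mice -0.01 (DESeq2), -0.0104 (RLE factors), -0.00304 (no filter), -0.00138 (filter of 50 counts) and -0.168 (wt good controls), and in R6/1 poor mice -0.00278 (filter of 50 counts), -0.00631 (library number as covariate) and -0.0642 (libraries 9 to 16). For R6/1 good mice Nr1d2 had -0.00569 (DESeq2) and -0.00594 (RLE factors), and Per2 0.00153 (covariate), whereas Per2 in R6/1 poor mice had 0.0229 (wt poor controls). Between R6/1 poor and good mice, the covariate and libraries 1 to 8 both come down to R6/1 poor 2 alone against the 4 good mice, and gave -0.181 for Per1, -0.354 for Per2, -0.0338 for Clock and -0.079 for Nr1d2. Between wt poor and good mice 11 member values changed sign over the alternatives, and in the interaction 12. Leaving out each mouse, the ranges with a change of sign were -0.058 to 0.129, -0.0545 to 0.134 and -0.0501 to 0.138 for Cry1 in all, good and poor R6/1 mice, -0.0444 to 0.0496 for Nr1d2 in R6/1 good mice, -0.282 to 0.0318 for Per2 in R6/1 poor mice and -0.036 to 0.073 for Cry1 between R6/1 poor and good mice. The cause of these changes was not tested. Counts of the members ran from 374 to 12630 per library.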
